A study of Mus musculus with 9 samples.

Results

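The regions described here are autosomal stretches of open chromatin that were strong in LSK cells of one genotype and missing from the strong peaks of the other, in a comparison of HOXA9_KO with WT cells. Overlapping peaks (1 bp or more) of the 4 ATAC-seq lists formed 56016 autosomal regions, and the peaks of each list were ranked by the −log10 p-value of the peak caller. All lists were cut to the length of the shortest autosomal list, N = 27536 peaks. Closed regions ranked among the strongest 13768 peaks of both WT libraries and fell outside the strongest 27536 of both HOXA9_KO libraries, and opened regions did the reverse. This gave 73 closed and 197 opened regions, 270 of the 56016. The ranks chose these regions, so their ranks and fold values are given as a description and carry no test.

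ATAC-seq uses the transposase Tn5, which inserts adapters where DNA is not covered by nucleosomes, so reads pile up over active promoters and enhancers. LSK cells lack markers of mature blood lineages, carry Sca-1 and Kit on their surface, and hold the haematopoietic stem cells and early progenitors of the mouse. Hoxa9 encodes a homeodomain transcription factor that binds DNA together with the cofactors of the Meis and Pbx families and is known for its role in the self-renewal of blood stem cells and in leukaemia.

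The study profiled 9 libraries of mouse LSK cells in 5 groups, and the comparison here rests on WT (n = 2) and HOXA9_KO (n = 2). The titles call the second group a KO and its genotype tag calls it a HOXA9 knockdown, and the name of the title is used here. The labels trace the cells to WT or KO mice but leave out which part of the gene was deleted, what drove the deletion and the age of the mice, and the series text mentions transplanted mice only for another mutant, that of Prmt1. Nothing in them tells whether both libraries of a genotype stem from different animals, and the p-values measure only the spread between these samples, which may be technical.

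The libraries differed in more than their label. On chromosome Y below 90 Mb, the part that does not pair with X, the HOXA9_KO libraries had 15 and 16 peaks and both WT libraries 0, while Xist, the RNA gene that silences an X chromosome in females, had 2 peaks in each WT library and 0 in each HOXA9_KO library. Sex and genotype therefore cannot be told apart in this comparison, on autosomes too. WT was also shallower, with an inferred background depth of 7.38 and 6.29 reads per kb against 8.27 and 8.67 in HOXA9_KO, and its autosomal lists were shorter, with 34583 and 27536 peaks against 38961 and 40350. Of 16 stem and progenitor markers, 13 or 14 had a peak in or within 1 kb of the gene in the cut list of each library, Kit and Meis1 among them, but Ly6a, which encodes Sca-1, had none in any library. Of 9 lineage markers, 1 to 3 had a peak per library, and none was found at Cd3e, Cd8a, Ms4a1, Itgam or Ly6g. Among 5 markers of stroma and endothelium, 4 and 2 had a peak in HOXA9_KO and 3 and 4 in WT, with none at Cxcl12, and their part in the results was not tested.

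Promoter sequence was matched to the regions first, because a changed region over a gene start shows the DNA that the lists gained or lost. RefSeq promoter windows on GRCm38.p6, from 250 bases before to 50 bases after each start, overlapped 10 opened regions with 13 windows and 2 closed regions with 2 windows. The 250 bases before the start are printed for 6 starts in opened regions and for Sptlc1, the protein-coding start among those in closed regions, 5′ to 3′ on the strand of the gene. Capitals mark letters that match a searched motif on either strand.
Aass (chr6:23132987-23133236, minus strand): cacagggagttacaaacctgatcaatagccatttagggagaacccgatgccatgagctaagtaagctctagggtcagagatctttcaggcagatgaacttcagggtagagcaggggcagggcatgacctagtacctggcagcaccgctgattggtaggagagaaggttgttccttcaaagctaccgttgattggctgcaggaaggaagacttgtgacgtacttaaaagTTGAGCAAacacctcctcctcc
Iqca (chr1:90153437-90153686, minus strand): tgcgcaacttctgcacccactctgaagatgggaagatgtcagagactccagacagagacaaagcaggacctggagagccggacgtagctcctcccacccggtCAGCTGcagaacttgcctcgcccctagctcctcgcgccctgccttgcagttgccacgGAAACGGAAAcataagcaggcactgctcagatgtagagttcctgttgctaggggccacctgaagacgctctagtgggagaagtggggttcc
Zfp37 (chr4:62208547-62208796, minus strand): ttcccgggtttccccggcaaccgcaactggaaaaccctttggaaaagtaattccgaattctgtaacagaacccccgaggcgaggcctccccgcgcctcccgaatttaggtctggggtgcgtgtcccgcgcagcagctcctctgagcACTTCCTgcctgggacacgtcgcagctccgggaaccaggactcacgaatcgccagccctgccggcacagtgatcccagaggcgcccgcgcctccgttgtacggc
Nipsnap1 (chr11:4873701-4873950, plus strand): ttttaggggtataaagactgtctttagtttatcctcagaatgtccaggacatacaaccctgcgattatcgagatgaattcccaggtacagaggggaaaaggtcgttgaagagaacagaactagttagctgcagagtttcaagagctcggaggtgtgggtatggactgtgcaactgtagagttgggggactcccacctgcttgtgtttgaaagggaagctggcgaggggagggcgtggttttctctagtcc
Capsl (chr15:9435778-9436027, plus strand): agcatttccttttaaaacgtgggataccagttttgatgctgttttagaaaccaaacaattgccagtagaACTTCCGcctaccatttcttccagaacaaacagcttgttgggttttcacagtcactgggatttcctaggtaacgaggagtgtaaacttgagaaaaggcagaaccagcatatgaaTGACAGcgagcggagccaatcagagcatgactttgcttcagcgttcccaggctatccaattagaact
Armh4 (chr14:49783384-49783633, minus strand): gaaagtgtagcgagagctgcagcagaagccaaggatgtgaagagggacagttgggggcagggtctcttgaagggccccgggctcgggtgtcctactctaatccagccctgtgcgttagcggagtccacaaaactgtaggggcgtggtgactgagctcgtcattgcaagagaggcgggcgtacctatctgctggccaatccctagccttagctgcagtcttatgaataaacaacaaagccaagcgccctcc
Sptlc1 (chr13:53377362-53377611, minus strand): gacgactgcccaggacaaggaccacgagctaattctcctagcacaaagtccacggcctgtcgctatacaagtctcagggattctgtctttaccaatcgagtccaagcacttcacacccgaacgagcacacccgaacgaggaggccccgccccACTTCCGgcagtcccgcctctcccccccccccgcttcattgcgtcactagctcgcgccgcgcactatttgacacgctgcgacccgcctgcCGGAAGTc

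In these bases Aass holds a C/EBP motif (TTGCNNAA), Iqca an E-box (CAGCTG) and an IRF motif, Zfp37 a PU.1-type ETS motif (AGGAAGT), Capsl a MEIS motif (TGACAG) and an ETS motif (CGGAAGT), and Sptlc1 the ETS motif at a pair of places. Over the whole windows, TGACAG was in 2 of the 13 opened windows and in 19.0% of all 31396 autosomal windows, the IRF motif in 3 of 13 against 3.46% (Iqca and an overlapping window share 1 site), and CGGAAGT in 1 of 13 opened and 1 of 2 closed windows against 6.50%. The posterior HOX motif (TTTATGG) and the motif of HOX with MEIS or PBX (TGATTTA) were in none of the 15 windows and in 2.77% and 2.95% of all windows, and neither the AGATAAG letters bound by GATA factors, the TGTGGTT letters bound by RUNX factors, the CTTTGAT letters bound by TCF/LEF factors nor the CTCF motif were in any of the 15. The C/EBP, PU.1-type and E-box motifs were in 10.9%, 9.37% and 16.3% of all windows, and the AP-1 motif (TGANTCA) in 7.84% and in 1 opened and 1 closed window. A match describes the letters only, and most closed and opened regions lie outside these windows. The starts of Aass and Nipsnap1 hold 4 and 6 CG dinucleotides before the start, those of Zfp37 and Sptlc1 23 and 22, against a median of 6 over all windows.

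Closed regions were 0.633% of the 11536 regions that were strong in both WT libraries, and opened regions 1.67% of the 11792 that were strong in both HOXA9_KO libraries. Of the closed regions, 24 had no peak at any rank in the full HOXA9_KO lists, 28 had a weak one in 1 library and 21 in both. Of the opened regions, 164 had no peak at any rank in WT and 33 had one, in WT replicate 1 each time. Only 8 closed regions (11.0%) and 23 opened regions (11.7%) lay within 1 kb of a gene end, whereas 66.8% of the regions strong in both WT and 63.2% of those strong in both HOXA9_KO did. Most lay further out, with 31 closed and 105 opened regions inside a gene and 27 and 47 between 1 and 50 kb from a gene end. The remaining 7 closed and 22 opened regions had no gene within 50 kb. The median width was 525 bp for closed and 452 bp for opened regions, against 891 and 864 bp for the strong regions of WT and HOXA9_KO. In bulk cells a weaker peak can come from fewer cells with the open site or from a less open site in each cell, and these cannot be told apart.

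The read pileups behind the calls were low. At closed regions the summit held a median of 21 reads in WT replicate 1 (16 to 44) and 17 in WT replicate 2 (13 to 31). The HOXA9_KO libraries had a peak at 31 and 39 of the 73, with medians of 10 reads in each. At opened regions the medians were 24 and 26 reads in the HOXA9_KO libraries, with lowest values of 19 and 20, and the 33 peaks of WT replicate 1 had a median of 8. No list held a peak under 6 reads, so a missing peak was not detectable at that depth rather than absent. The fold over local background at closed regions was at least 5.56 in WT and at most 5.11 in HOXA9_KO. The choice of regions by rank favours such a gap, so it is no separate result. At opened regions the values overlapped. The lowest fold in HOXA9_KO replicate 1 was 2.29, at 1 region with a high local background that was assigned to Mir101c. The highest in WT replicate 1 was 4.25. The cut ranks also stand for unequal strength: the peak at rank 27536 had a −log10 p of 7.40 and 8.13 in the HOXA9_KO lists but 5.79 and 3.29 in the WT lists. A region outside the cut in HOXA9_KO could thus hold a peak that would have been kept in WT. With the lists as deposited and no peak allowed in the other group, the counts were 37 closed and 691 opened regions. Of the regions named in the text, the closed ones at Pla2g4a, Cyp4a12a, Xdh, Sptlc1, Ttc39aos1 and Mcemp1 and the opened ones at Hey1, Jmjd1c, H2-Aa, Bmpr1b, Pan3 and Ier2 lost their call when peaks were ranked by fold.

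**Figure D1:**
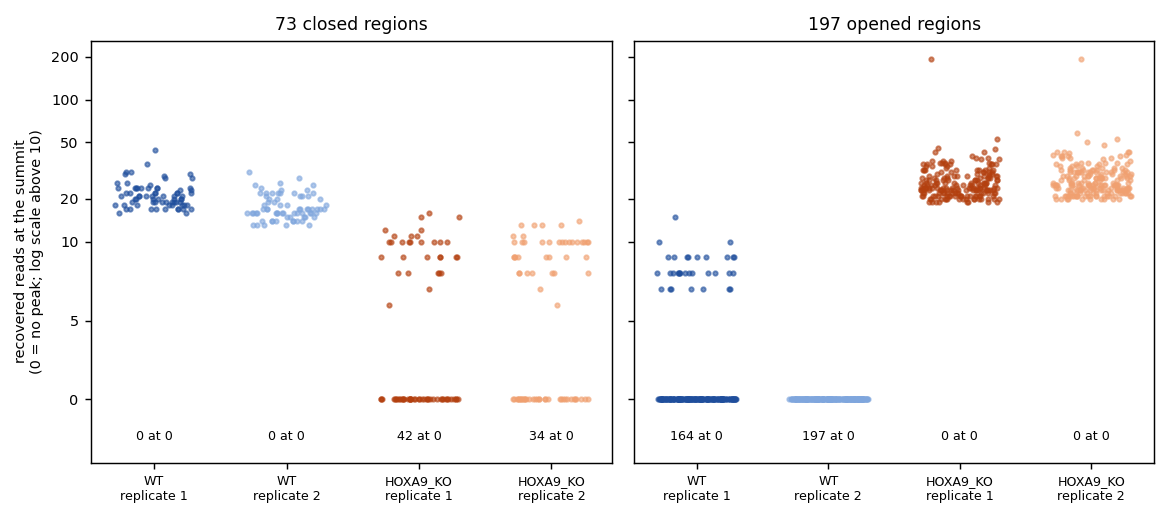
Reads at the peak summit, recovered from the deposited fold and p (vertical axis, linear up to 10 and logarithmic above), in the 4 libraries at the 73 closed and 197 opened regions, each point 1 region, with 0 for no peak and the number of such regions printed below. WT replicate 2 has no peak at any opened region, and 42 and 34 closed regions have none in the HOXA9_KO libraries.

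The closed region with the best WT ranks lay inside Xrcc4, whose product holds DNA ligase IV in the repair of double-strand breaks by end joining (chromosome 13, 89889029 to 89889409, 40.1 kb from the nearest gene end). Its fold over background was 15.3 and 13.1 in WT (14.2 ± 1.54, SD, n = 2), with 44 and 26 reads. HOXA9_KO replicate 1 had no peak there and replicate 2 one of 3.19 with 6 reads. Xrcc4 was the only member of the fixed gene lists with a closed region. It was 1 of 15 strong WT regions at the genes of the end joining list, beside 0.633% over all strong WT regions. With a count of 1, nothing about that list is read from it.

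The 20 closed regions with the best WT ranks lay at genes of various functions. Pla2g4a encodes the cytosolic phospholipase that frees arachidonic acid (chromosome 1, 149946732 to 149947860). The region inside it had a fold of 7.80 and 8.52 in WT and 4.42 and 5.11 in HOXA9_KO, so all 4 libraries had a peak there. Alox5ap encodes the protein that presents arachidonic acid to 5-lipoxygenase (chromosome 5, 149274518 to 149275267), and its region had 7.98 and 8.37 in WT, no peak in HOXA9_KO replicate 1 and 3.92 in replicate 2. Inside Apbb1ip, an adaptor between Rap1 and integrins (chromosome 2, 22864646 to 22864990), WT had 9.09 and 9.35 and neither HOXA9_KO library had a peak. Pik3ap1, a B cell adaptor for PI3-kinase (chromosome 19, 41321013 to 41321617), kept weak peaks of 4.45 and 4.65 in HOXA9_KO against 7.95 and 8.36 in WT. The region inside Tiam1, an exchange factor for Rac (chromosome 16, 89972999 to 89973478), had 7.44 and 8.40 in WT and 4.21 in HOXA9_KO replicate 2 alone.

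Others among the 20 lay at Fhad1 (7.20 and 8.56 in WT, 4.28 and 4.05 in HOXA9_KO), at Ipmk, an inositol phosphate kinase (7.61 and 10.9 in WT, 3.09 in 1 HOXA9_KO library), and 17.3 kb from Cyp4a12a, a fatty acid hydroxylase (9.09 and 9.65 in WT, 4.86 in 1 HOXA9_KO library). Regions without a gene within 50 kb were among the strongest too, at 134339218 to 134339697 on chromosome 3 (9.49 ± 0.288 in WT, SD, n = 2) and at 143147577 to 143147961 on the same chromosome (9.48 ± 0.164, SD, n = 2). Each of these 2 had a weak peak in both HOXA9_KO libraries, between 4.10 and 5.01.

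The 8 closed regions at gene ends included Xdh, a purine-degrading enzyme (5.87 and 7.10 in WT, 3.51 and 3.38 in HOXA9_KO), Slc4a7, a bicarbonate transporter (7.87 and 6.91 in WT, 4.98 in HOXA9_KO replicate 2), and Sptlc1, a subunit of the enzyme that starts sphingolipid synthesis. Sptlc1, whose start is printed above, had 7.66 and 7.35 in WT and 4.86 and 5.01 in HOXA9_KO, with 17 and 16 reads against 10 and 10. At Mcemp1, a membrane protein gene of mast cells, WT had 6.31 and 6.66 and HOXA9_KO replicate 1 had 4.68. The immunoglobulin segment Ighv1-61 and the non-coding Smc2os had no peak in HOXA9_KO, and Ttc39aos1 kept a weak peak in replicate 2. Gm13165 had the highest values of the 8, at 9.74 and 8.86 in WT, and 4.41 and 5.01 in HOXA9_KO.

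The median of the group mean fold was 10.0 at opened regions and 7.55 at closed ones, each below that of all strong regions of its own group, 11.6 in HOXA9_KO and 9.60 in WT. The strongest had no gene within 50 kb (chromosome 7, 93254179 to 93254819). It had a fold of 16.0 and 18.5 in HOXA9_KO, with 40 and 48 reads, and no peak in WT. A further gene-poor region, on chromosome 15 (29437664 to 29438157), had 11.8 and 14.7 in HOXA9_KO and no peak in WT. Of the 20 opened regions with the best ranks, 7 had no gene within 50 kb.

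Among those with a gene, the region inside Vmp1, an autophagy membrane protein (chromosome 11, 86592884 to 86593433), had 14.2 and 13.6 in HOXA9_KO and no peak in WT. Tpd52 (8.45 and 12.7), Pogz, a zinc finger protein of chromatin (13.3 and 11.8), and Pisd, a mitochondrial phospholipid enzyme (9.04 and 11.2), likewise had no WT peak. Nav3, a gene of a microtubule-binding neuron navigator protein, held 2 opened regions on chromosome 10, one starting at 109924224 (12.5 and 11.2) and one at 110155495 (11.9 and 11.7), both without a WT peak. Ces1a, a carboxylesterase gene, had 2 as well, of 10.2 and 11.2 inside the gene and 8.21 and 11.0 beside it.

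**Figure D2:**
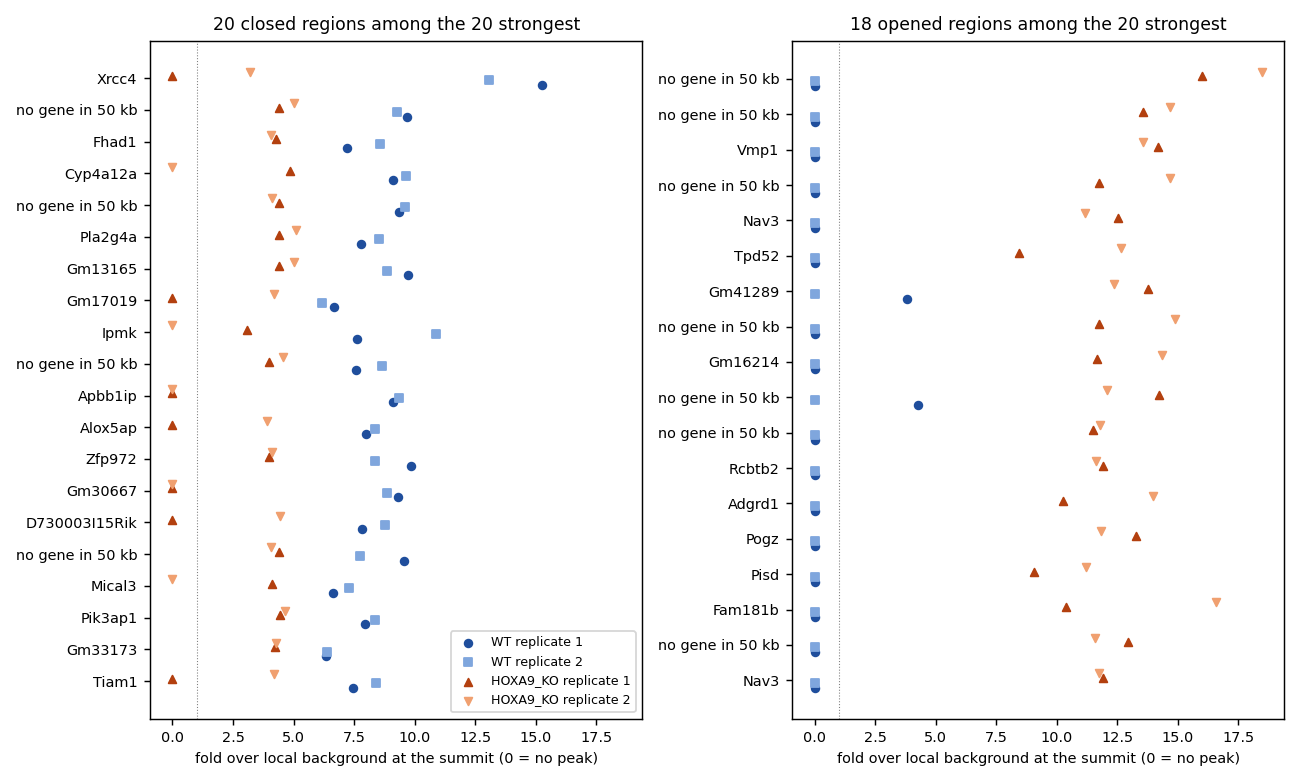
Fold over local background at the summit (horizontal axis, 0 where a library has no peak) in each of the 4 libraries for the 20 closed regions with the best WT ranks and 18 of the 20 opened regions with the best HOXA9_KO ranks, each point 1 library. At the closed regions HOXA9_KO often keeps a peak between 3.09 and 5.11, and at the opened regions WT has a peak at 2 of the 18 drawn, near Gm41289 and at a region without a gene.

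Of 535 symbols in 21 lists of pathways and cell types, 530 were matched to genes, and 12 of these genes had an opened region and 1 a closed one. Wnt genes held 4 opened regions among 27 strong HOXA9_KO regions, and 0 closed among 21 strong WT regions, where the shares over all strong regions were 1.67% and 0.633%. With counts this small, nothing particular to a list is read from them. Lef1, a DNA-binding partner of β-catenin, had one inside the gene (chromosome 3, 131157464 to 131157911), with 10.6 and 10.3 in HOXA9_KO. Lrp5, a co-receptor of Wnt ligands, had 8.25 and 8.86 (chromosome 19, 3669144 to 3669502). Lgr5, a receptor of R-spondins that marks stem cells of the gut, held 2 on chromosome 10, of 8.98 and 9.12 at 115465699 and of 8.44 and 8.93 at 115518568. None of these 4 had a WT peak at any rank.

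The Notch pathway list held 2 opened regions among 20 strong ones, read against the same 1.67%, both without a WT peak. Hey1 had 6.78 and 7.58 inside the gene (chromosome 3, 8664561 to 8664906) with 35 and 39 reads. Heyl had 9.46 and 9.55 at 10.2 kb from the gene, with 22 reads in each library. Both encode transcriptional repressors that Notch induces.

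The chromatin list had 3 opened regions among 55 strong ones, again beside 1.67% overall. Chd7, a nucleosome remodeller, held 2 of them on chromosome 4, at 8811076 inside the gene (11.6 and 12.4) and at 8917161 beside it (8.20 and 10.3). Jmjd1c, a JmjC-domain protein, held the third, with 6.09 and 6.88 inside the gene, and none of the 3 had a WT peak. Further listed genes had 1 region each. Their lists held 7 strong HOXA9_KO regions for Cd28 (T and NK lymphoid) and 12 for H2-Aa (dendritic, mast and eosinophil). Rab27b (megakaryocyte) was on a list with 17, and Bmpr1b (TGF-beta and Smad) on one with 32. The share over all strong regions was 1.67%, and with a count of 1 nothing about a list is read from it. Cd28, the co-stimulatory receptor of T cells, had 8.81 and 14.1 in HOXA9_KO and 3.83 in WT replicate 1. H2-Aa, an MHC class II chain, had 7.25 and 9.24 at a region 5.71 kb away, and Rab27b, a GTPase of granule release, 10.2 and 10.8 inside the gene on chromosome 18, both without a WT peak. Bmpr1b, a BMP receptor, had 8.66 and 10.0 in HOXA9_KO and 4.25 in WT replicate 1.

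No gene of the lists of Hox genes and cofactors, stem cell transcription factors or surface receptors of LSK cells had a closed or opened region. Those lists held 7, 26 and 18 strong WT regions and 9, 33 and 19 strong HOXA9_KO regions, so few that the overall shares of 0.633% and 1.67% also leave less than 1 region to a list, and the zeros are no result about them. The lists of homologous recombination, DNA replication, p53 targets, cell cycle, arginine methyltransferases, erythroid, B lymphoid, granulocyte and monocyte, and stroma genes had none either. They held from 2 (stroma) to 35 (DNA replication) strong WT regions and from 0 to 33 strong HOXA9_KO regions. The same shares leave less than 1 region to each, so these zeros are no result either.

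The 23 opened regions at gene ends included transcription factors and signalling genes. Nr4a1, an orphan nuclear receptor induced by many stimuli, had 8.99 and 9.85 in HOXA9_KO with 36 reads in each library (chromosome 15, 101253847 to 101254426), and Ier2, an immediate early gene, had 4.48 and 5.09 with 53 and 58 reads. Clec1a, a C-type lectin receptor, had 10.1 and 11.7. Clcf1, a cytokine of the interleukin 6 family, had 8.10 and 9.16 in HOXA9_KO and 3.40 in WT replicate 1. Map2k3, a kinase upstream of p38, had 8.83 and 9.56, and Pan3, a subunit of an mRNA deadenylase, 6.31 and 7.80. Of these 6, Clcf1 was the one with any WT peak.

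At the printed starts both HOXA9_KO libraries had a peak. Aass, the first enzyme of lysine breakdown, had 9.11 and 10.9 with 21 and 24 reads, and Nipsnap1, a mitochondrial protein, 9.70 and 12.3 with 24 and 29 reads. Capsl, a calcium-binding protein, had 9.71 and 13.7, and Zfp37, a zinc finger protein, 12.8 and 8.85. These 4 had no WT peak, while Iqca (10.5 and 11.9) and Armh4 (8.76 and 10.5) had one of 3.83 and 3.01 in WT replicate 1.

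One opened region was unlike the rest. At 3009731 on chromosome 9, assigned to Mir101c, the HOXA9_KO libraries had 194 and 193 reads but a fold of only 2.29 and 2.51, the lowest of all opened regions, over a high local background. No filter for repeats was applied.

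The thresholds separated regions of similar strength. Just inside, the closed regions near Gm34306 and inside Slco4c1 had a fold of 7.23 in WT replicate 1, and just outside, the region at Samd4 had 7.23 there as well. For opened regions, a region on chromosome 3 starting at 20714708 was just inside with 10.7 and 8.95 in HOXA9_KO, and one at Clec1b just outside with 7.59 and 9.65.

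Changed regions were spread over the autosomes, unevenly. Opened regions made up 3.00% of the strong HOXA9_KO regions of chromosome 15 (13 of 433), 2.79% on chromosome 3 (19 of 682), 2.67% on chromosome 6 (18 of 675) and 2.64% on chromosome 19 (9 of 341), and 0.683% on chromosome 16 (3 of 439). Closed regions reached 1.46% on chromosome 4 (11 of 754) and 1.30% on chromosome 3 (9 of 690), and chromosome 18 had 0 of 350. These shares were not tested. Groups of 3 within 2 Mb occurred around Lgr5, around Chd7 and between Sulf2 and Nfatc2 for opened regions, and between C3ar1 and Clstn3 on chromosome 6 for closed regions.

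**Figure D3:**
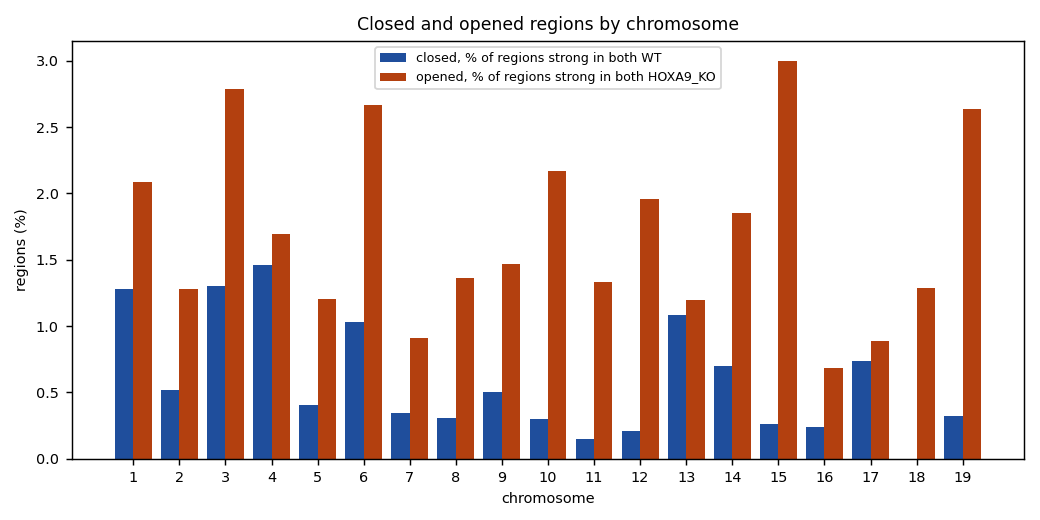
Share of the regions strong in both WT that were closed, and of the regions strong in both HOXA9_KO that were opened (vertical axis, percent), on each autosome. The opened share is the highest on chromosome 15 at 3.00% and the closed share on chromosome 4 at 1.46%.

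At Hoxa9 itself (chromosome 6, 52223097 to 52227370) the HOXA9_KO libraries had a weak peak in the gene, of 4.45 and 5.09 times background at ranks 26900 and 25499. WT replicate 1 had one of 4.78 at rank 19242, and WT replicate 2 had none. Without the deleted part being named, these peaks check nothing about the deletion. The changed region closest to Hoxa9 was an opened one near Snx10, 0.589 Mb away, and the next was 3.49 Mb away.

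Hox cofactors had shared regions rather than closed or opened ones. Of the 13 shared regions at genes of the list of Hox genes and cofactors, the 5 at Meis1 had shifts from −5.45 to 35.7 points, where the shift is the HOXA9_KO minus the WT mean of the rank as a percent of the list and 100 is the strongest peak. The largest, inside Meis1 (chromosome 11, 18948723 to 18949399), was at 52.2 and 61.7 in HOXA9_KO and 30.8 and 11.7 in WT (shift 35.7 ± 12.1, SE; limma adjusted p = 0.171). The region at Pbx3 was at 63.7 and 56.9 in HOXA9_KO and 72.7 and 66.5 in WT. None of the regions at Meis1 or Pbx3 passed the test.

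The other mutants of the series, which the choice of regions did not use, were then read at the same regions. All carry Y peaks, 12 or 13 in each library of Bcat_KO (β-catenin) and PRMT1_KO and 6 in the dKO of β-catenin and Hoxa9 (n = 1). Xist had 1 peak in Bcat_KO replicate 1, beside its 13 Y peaks, and 0 in the others. At the 73 closed regions, a peak among the strongest 27536 was found at 52 and 59 in Bcat_KO and at 60 and 60 in PRMT1_KO, and 43 had one in all 4 libraries. At the 197 opened regions, 152 and 161 had one in Bcat_KO and 112 and 112 in PRMT1_KO. Over all strong regions of WT or HOXA9_KO the share was between 98.2% and 99.4% in these libraries.

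Single regions show both patterns. The closed region of Xrcc4 had a fold of 10.8 and 9.84 in Bcat_KO and 12.7 and 17.1 in PRMT1_KO, beside its 15.3 and 13.1 in WT. Both Bcat_KO values lie below both WT values. The region was chosen for its high WT ranks, which favours such a difference, so nothing about Bcat_KO is read from it. The closed regions at Slc4a7 and Dock9 and 1 region without a gene were among the strongest 27536 in no other mutant library. Of the opened regions, 91 were in all 4 libraries, such as those at Vmp1, Lef1 and Hey1, and 22 were in none, such as those at Adgrv1, Npas3 and Camk2d and 1 of the 2 at Lgr5.

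The dKO list is short and shallow. It had a peak at 5 of 73 closed regions (6.85%, 95% Wilson interval 2.96 to 15.1%) and at 33 of 197 opened regions (16.8%, 12.2 to 22.6%), which covers counting error only. Over all regions strong in WT it had one at 58.6%, and over those strong in HOXA9_KO at 57.7%. The opened regions with a dKO peak included the strongest, on chromosome 7, at a fold of 6.16, and those at Aass (7.97), Nr4a1 (6.27) and Nipsnap1 (4.27). The values of HOXA9_KO at the same regions come from libraries of greater depth.

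**Figure D4:**
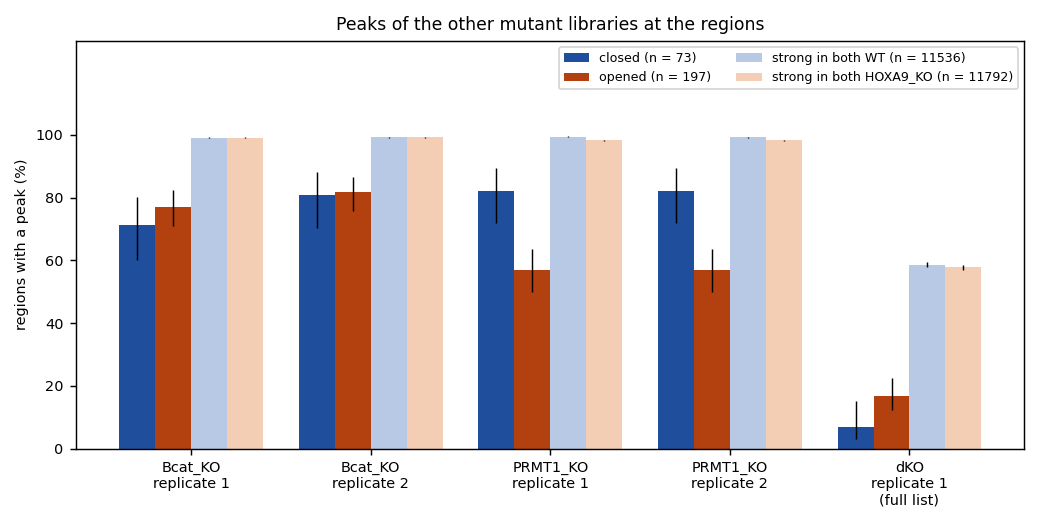
Share of the closed, opened and all strong regions that have a peak (vertical axis, percent) in the other mutant libraries, among their strongest 27536 autosomal peaks or, for the dKO, in its full list, with 95% Wilson intervals over regions that cover counting error only. The PRMT1_KO libraries have a peak at 82.2% of the closed and 56.9% of the opened regions, and the Bcat_KO libraries at 71.2 and 80.8% of the closed and 77.2 and 81.7% of the opened regions.

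Most open chromatin was shared. In 17278 regions with a peak among the strongest 27536 of all 4 lists, the shift lay within 10 points for 61.5%. The median absolute shift was 7.06 points, against a median absolute difference of 6.40 between the WT libraries and 6.19 between the HOXA9_KO libraries. The shift compares means of 2 libraries, which vary less than single libraries, so these values are unlike measures. Both HOXA9_KO libraries ranked above both WT libraries at 3986 regions (23.1%) and below both at 4633 (26.8%). No region passed limma's test with Benjamini-Hochberg adjustment over all 17278 in either direction (0%), and the lowest adjusted p was 0.0921, reached by 121 regions. At an unadjusted p under 0.05 there were 1583 stronger and 1662 weaker regions. On other scales the fit did make calls: 433 stronger and 344 weaker on log2 rank, and 168 and 77 on quantile-normalized log2 fold. Both scales called the same 158 regions stronger (0.914%) and 73 weaker (0.423%).

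The shift differed by place in the gene. Its median was −0.99 points at 9852 regions of gene ends and 0.66 at 4812 regions inside genes. Groups that did not overlap were stronger in HOXA9_KO at 19.6% of gene ends and 28.0% of gene bodies, and weaker at 28.7% and 23.2%. These are shares over regions and were not tested.

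**Figure D5:**
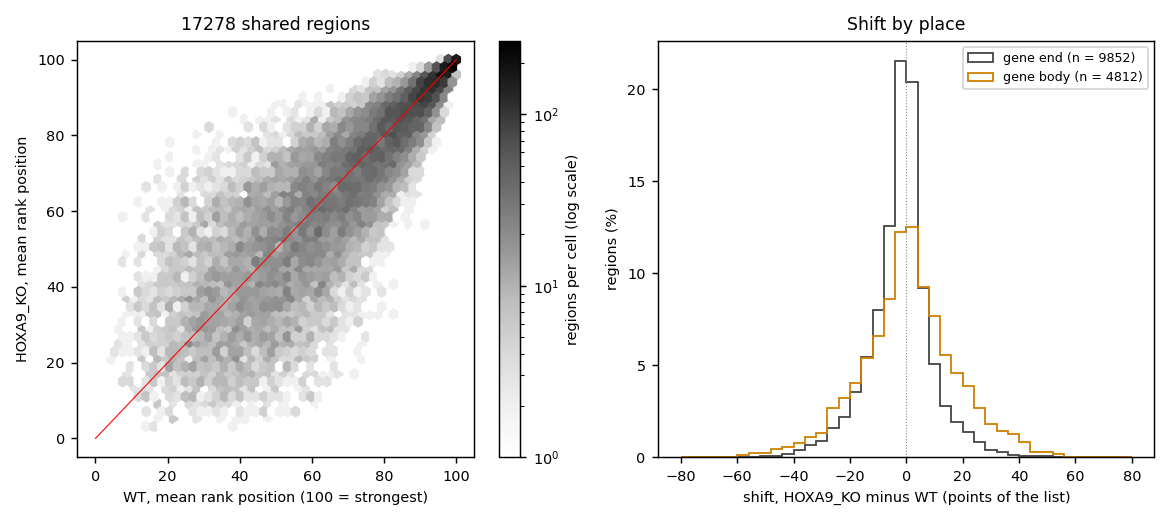
On the left, the mean rank position of the 17278 shared regions in HOXA9_KO against WT (percent of the list, 100 is the strongest, darker cells hold more regions on a log scale, the line marks equality), and on the right the share of regions by shift (HOXA9_KO minus WT, points) at gene ends and in gene bodies. Points gather along the line, most tightly at the strongest regions, and the curve of gene bodies is broader.

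The regions with the smallest p in limma's test are named without a call. In the stronger direction the smallest p belonged to a region without a gene on chromosome 16 (51351874 to 51352529), at 96.9 and 95.7 in HOXA9_KO and 79.6 and 77.9 in WT (shift 17.6 ± 2.31 points, SE). Next came a region inside Plekha5, at 94.1 and 97.3 against 76.1 and 74.2, and one inside Plxdc2, at 94.4 and 97.2 against 78.0 and 79.3. A region at a gene end of Pkia, an inhibitor of protein kinase A (94.9 and 96.6 against 78.8 and 80.6), followed. After it came one at a gene end of the histone gene H4c17 (97.5 and 95.1 against 81.8 and 77.8). H4c17 had a fold of 26.1 and 26.0 in HOXA9_KO against 13.6 and 11.3 in WT, and it is among the 158 regions called on both other scales. Fads2, a fatty acid desaturase, and Lrrc8d, a subunit of volume-regulated anion channels, were higher by 16.0 ± 2.41 and 7.63 ± 1.20 points (SE). Of the other scales, only log2 rank called Fads2 and Lrrc8d.

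In the other direction, Hsd11b1, the enzyme that regenerates active glucocorticoid, had the shift farthest below 0 among regions whose groups did not overlap. The region inside the gene (chromosome 1, 193242265 to 193243227) was at 79.1 and 80.9 in WT and at 6.60 and 5.87 in HOXA9_KO, a shift of −73.8 ± 10.7 points (SE), and its fold was 9.92 and 10.9 against 5.30 and 5.49. Both other scales called it. A region 24.9 kb from Gm19866 was at 86.4 and 84.3 in WT and 25.3 and 19.2 in HOXA9_KO and was also called on both. Regions at a gene end of Rab22a, an endosomal GTPase (−8.78 ± 1.25), and Pgm3, a sugar phosphate mutase (−10.3 ± 1.54), shifted less (points ± SE). So did those of Fzr1, an activator of the anaphase-promoting complex (−11.0 ± 1.65), and Pdss1, an enzyme of ubiquinone synthesis (−12.1 ± 1.93). All of these stayed at 82.5 or above in HOXA9_KO. Both other scales called Fzr1, while Rab22a, Pgm3 and Pdss1 were called on log2 rank but not on quantile-normalized log2 fold.

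Other large shifts were picked after their values were seen. A region inside Hdac4, a histone deacetylase (chromosome 1, 92080060 to 92080466), was at 78.6 and 81.7 in HOXA9_KO and 6.01 and 21.3 in WT, with a fold of 12.9 and 14.3 against 4.29 and 4.82. One inside App, the amyloid precursor gene, was at 5.52 and 2.81 in HOXA9_KO and 74.1 and 67.6 in WT. Among genes of the fixed lists, a region near Egr1 was at 85.7 and 83.0 against 36.3 and 26.8. Regions inside Bcl11a (76.4 and 79.5 against 29.4 and 9.13) and Mef2c (55.8 and 62.8 against 7.57 and 0.694) were higher in HOXA9_KO too. In the weaker direction, regions near Igll1, a surrogate light chain of pre-B cells (3.40 and 7.30 against 59.2 and 70.2), and at Fcgr3, an Fc receptor (67.7 and 73.9 against 92.9 and 93.3), were lower. Groups did not overlap in any of these, which was a condition for picking Hdac4 and App. The regions at genes of the fixed lists were picked for the smallest p, which favours groups without overlap. Over all shared regions the groups did not overlap at 23.1% in the stronger direction and 26.8% in the weaker. None of the regions named here passed limma's test on rank.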

How the data were processed

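ATAC-seq peak lists of 4 libraries (WT and HOXA9_KO, 2 each) were compared, and those of the other 5 libraries were read at the same regions. Per the submitters' processing notes, the authors used Bowtie2 2.4.2, SAMtools 1.14, Picard 2.27.4 and MACS2 on GRCm38/mm10, and per the file headers and peak names unmapped reads and duplicates were removed and each library was called alone. The deposited lists give for each peak a score, the fold enrichment (a ratio of pileup to local background), the −log10 p-value and −log10 q-value, and the summit offset in bases, which the authors deposited without normalization between libraries. Read totals are not given in the sources used here. Summit reads and local background were recovered from fold and p and were whole within 0.01 for at least 99.996% of peaks in each library, and the lowest background of a list over its shortest peak gave the background depth.

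A region was assigned to a gene end within 1 kb, otherwise to a gene body, otherwise to the nearest gene end within 50 kb, with protein-coding genes first, from the RefSeq genes of GRCm38.p6. The members, gene lists, motifs and marker lists were chosen with earlier results of these data known. Shared regions were tested with limma 3.58.1 (R 4.3.3, mean-variance trend) on rank as a percent of N, with Benjamini-Hochberg adjustment and a threshold of 0.05. With 2 libraries against 2, a two-sided exact permutation test of a single value cannot go below 0.333, so none was run. The fit was tested on simulated data.

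Named regions were the 20 with the best ranks in each direction, those at gene ends, those at listed genes, genes with 2 or more changed regions, the 2 nearest to each threshold, and the 10 shared regions per direction with the smallest p. Some listed-gene and large-shift regions were added after their values were seen. The alternatives were ranking by fold, lists as deposited, a stricter rank, no peak at any rank, a −log10 q of at least 5, summit windows of 100 bp on each side, all chromosomes, other scales and fits, the replicate number as a block, and each library left out. A few genes are not reported here. No filter for repeats or poorly mapped sequence was applied.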

Additional observations from a re-analysis of the deposited data

Results flagged for a closer look

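Chromosome Y, which the comparisons do not use, had peaks in 1 group only. Below 90 Mb, HOXA9_KO replicate 1 had 15 peaks and HOXA9_KO replicate 2 had 16, against 0 in both WT libraries, and Xist had 2 peaks in each WT library and 0 in each HOXA9_KO library. The labels do not give the sex of the mice, and sex and genotype cannot be told apart here.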

How the results depend on the processing

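The 2 libraries per group and summits of few reads limit every count given here, and no call separates genotype from sex. Ranking peaks by fold gave 92 closed and 289 opened regions, and ranking over all chromosomes 68 and 197, both within 1.5 times the 73 and 197. The lists as deposited gave 37 and 691, a stricter rank in the strong group 1 and 5, a −log10 q of at least 5 gave 40 and 94, and summit windows 158 and 297. Asking for no peak at any rank left 24 closed regions and 164 opened ones. Leaving out 1 library at a time gave 140 to 307 closed and 360 to 470 opened regions, where the group left with 1 library has 1 condition fewer to meet. Of the members, 55 closed and 174 opened regions were still called when ranked by fold, 71 and 196 with summit windows, and 8 and 40 with the stricter q. Ranking by fold ended the calls at Pla2g4a, Cyp4a12a, Gm17019, Gm33173, Xdh, Sptlc1, Ttc39aos1 and Mcemp1 among the named closed regions. Among the named opened ones it ended those at Hey1, Jmjd1c, H2-Aa, Bmpr1b, Pan3, Ier2, Wbp1, LOC115488765, Gm46485, 4930579P08Rik and a region without a gene on chromosome 7. The Xrcc4 call ended where no HOXA9_KO peak was allowed.

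For the shared regions, the fit called 0 in each direction with any-rank peaks, without the mean-variance trend and with summit windows. It called 433 stronger and 344 weaker on log2 rank and 168 and 77 on quantile-normalized log2 fold. Without 1 library at a time it called 7 to 179 stronger and 1 to 177 weaker, and the lone library of a group was assumed to vary like the other pair. More weaker regions were called without a HOXA9_KO library (104 and 177) and more stronger ones without a WT library (136 and 179). With the replicate number as a block it called 399 and 344. The labels give the groups the same replicate numbers. Across shared regions, the differences between replicates 1 and 2 of the groups correlated at 0.0036. Whether libraries of the same number were handled together is not given and was not tested. The causes of these changes in the number of calls were not tested. Among the shared regions named for the smallest p, none changed direction under the alternatives run. For closed and opened regions the alternatives recorded only whether a call was kept or lost, so they cannot show a change of direction. The direction of the other named shared regions was not followed across these alternatives.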

Other observations

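Several closed regions lay near genes of innate immune cells, which were picked after their values were seen and form no list. Opened regions lay at immune genes too, such as Il15 and Clec1a. The share of such genes among all changed regions was not counted, so no theme is read from them. A region 6.70 kb from C3ar1, the receptor of complement C3a, had a fold of 8.93 and 8.37 in WT and no peak in HOXA9_KO. A region 37.5 kb from Ly96, the partner of Toll-like receptor 4, had 7.55 and 6.88 in WT and no peak in HOXA9_KO. Near Clec4n, which encodes Dectin-2, WT had 6.97 and 6.91 and HOXA9_KO replicate 2 had 5.01. Near Fpr2, a formyl peptide receptor, WT had 8.37 and 6.34 and HOXA9_KO replicate 1 had 4.17, and inside Tnfrsf1b, a receptor of tumour necrosis factor, WT had 5.56 and 6.07 and HOXA9_KO replicate 1 had 3.80. All 5 regions were among the strongest 27536 in all 4 libraries of Bcat_KO and PRMT1_KO, as were 43 of the 73 closed regions. The fixed list of granulocyte and monocyte genes had 0 closed regions among 10 strong WT regions. The overall share of 0.633% leaves less than 1 region to so few, so the zero is no result about the list.

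The same chromosomal stretch of chromosome 13 held histone genes that shifted in opposite directions and came closer in rank. H4c17 held ranks 5026 and 6124 in WT and 691 and 1352 in HOXA9_KO. H4c18 held 548 and 519 in WT and 1536 and 2411 in HOXA9_KO. The region at a gene end of H4c17 was at 97.5 and 95.1 in HOXA9_KO and 81.8 and 77.8 in WT. That of H4c18 had a fold of 21.2 and 20.8 in HOXA9_KO and 24.6 and 24.3 in WT. The shift of H4c18 was −5.23 ± 1.24 points (SE). Both regions were called on log2 rank and on quantile-normalized log2 fold, and neither passed limma's test on rank in percent. Histone genes are near copies of each other, and whether reads were split among them was not tested.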
